A study of Mus musculus with 598 samples.

Results

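The cells described here are the Cdh1-low cells among mouse cells sorted for a Mesp1-GFP reporter at E6.75, and the question put to them was how knockout cells differed from wild type cells below the same threshold of epithelial genes. They were chosen by measured values: in each cell the mean log2(CPM + 1) of Cdh1, Epcam and Cldn6 had to lie below the median over both genotypes (CPM is the count per 1000000 reads on genes in that cell or group). The choice was made within 1 of 2 library sets of the series, set 1, whose cells had a read in at least 5 of 8 genes (Dusp15, Foxe1, Hoxd13, Kcnk12, Pou3f3, Six3, Sox3 and Vax1). It left 84 cells, 22 knockout and 62 wild type, of 85 knockout and 83 wild type cells in set 1 at E6.75 and of 598 cells in the series. The series holds single-cell RNA sequencing, with 1 library per cell, of those cells, of 89 E6.75 wild type cells in set 2, and of E7.25 wild type cells that make up the rest. Every cell in the comparison of genotypes was thus E6.75, Mesp1-GFP positive and of set 1, and the groups differ in the genotype label. Cells of E7.25 and of set 2 enter only where they are named. The labels do not describe the 2 library sets, which were told apart only by reads of the 8 genes. They name neither the targeted gene beyond the reporter, nor the allele, the strain, the embryos or the pools. Their protocol text describes adult bone marrow sorting, which the embryonic samples do not match.

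Each genotype thus stands as 1 sample, which allows neither tests nor p-values. Every difference below is a difference between these 22 and 62 cells, with no replicate check. Intervals are exact 95% intervals, Poisson for summed reads and Clopper-Pearson for shares of cells, and cover the counting of reads or cells only. By the protocol text the reads carry no molecular identifier, so the Poisson intervals do not cover the counting of molecules. A log2 ratio is log2 of (knockout CPM + 1)/(wild type CPM + 1) from reads summed over the cells of a genotype, which understates the difference of low genes. Fewer cells of a type and less RNA per cell cannot be told apart in such a sum, so the level over single cells is given beside it.

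Mesp1 is a basic helix-loop-helix transcription factor that is switched on briefly in the first mesoderm leaving the primitive streak and marks the founders of the cardiovascular lineages. Cells that pass through the streak lose epithelial junction proteins such as E-cadherin, the product of Cdh1, under the repressor Snai1, and then move away as mesenchyme. Nodal, FGF and WNT signals hold the streak state, whereas Lefty2, Hand1, Kdr and Etv2 mark cells that have moved on towards mesoderm, extraembryonic mesoderm and blood or endothelium.

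The threshold on the mean of the 3 genes was 4.41. The nearest knockout cell below it was at 4.39 and the nearest wild type cell below it at 4.40, and the nearest cells above it were wild type cells at 4.413 and 4.430. It kept 25.9% of the knockout cells (16.985 to 36.5%, 22 of 85) and 74.7% of the wild type cells (63.96 to 83.6%, 62 of 83). The same threshold kept 84.4% of the wild type cells of set 1 at E7.25 (78.1 to 89.5%), and 46.1% of the wild type cells at E6.75 in library set 2 (41 of 89), so wild type cells of the same stage differed between the library sets in this share. Below the threshold, knockout cells sat higher, with a median of 2.95 (1.56 to 4.39) against 2.58 (0 to 4.40) in wild type cells. The name Cdh1-low held for Cdh1, which was at 2.003 CPM in knockout against 1.38 CPM in wild type cells below the threshold, against 47.02 and 67.004 CPM in the Cdh1-high cells above it. Epcam, an epithelial adhesion molecule, was still read in most cells, at 192.98 and 150 CPM below the threshold against 436 and 395 CPM above it. These 3 genes made the choice, so their values are a description.

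**Figure D1:**
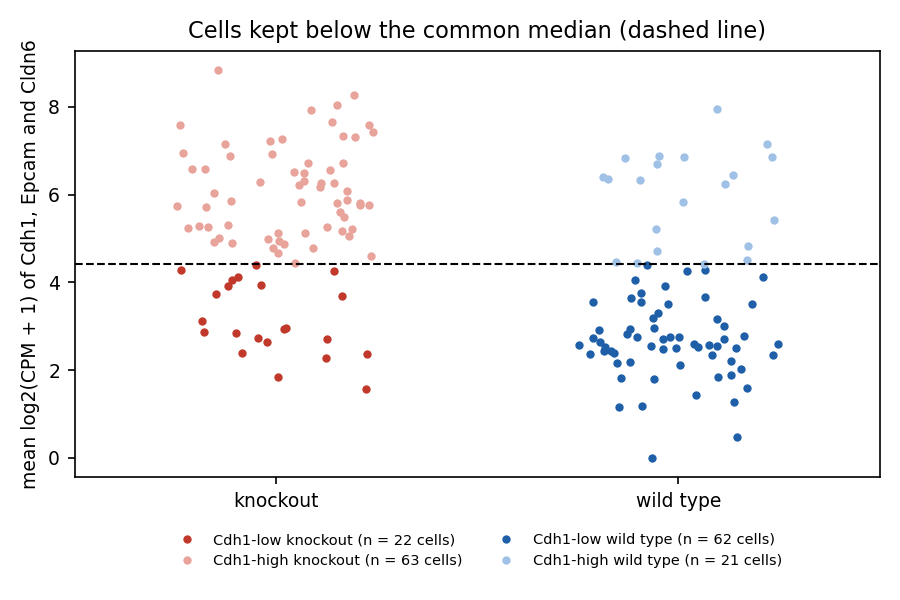
Mean log2(CPM + 1) of Cdh1, Epcam and Cldn6 (vertical axis) in each set 1 cell at E6.75, by genotype; each point is 1 cell and the dashed line is the median over both genotypes, 4.41. Of the knockout cells 22 lie below the line and 63 above it, and of the wild type cells 62 lie below and 21 above.

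Median depth was 707250 reads on genes in the kept knockout cells (148742 to 7082534) and 651416 in the kept wild type cells (114649 to 6129712). The deepest knockout cell alone gave 27.3% of all knockout reads, so each result is also given without it where it mattered. It had Y-linked reads. Thinned to 100000 reads, the median cell had 6598 genes in knockout and 6886 in wild type, and mitochondrial reads made up 4.22% and 4.99%. Cells with reads of Y-linked genes and cells without them come from different embryos only if no such reads were missed. Whether that held was not tested. Of the kept cells 9 of 22 knockout and 36 of 62 wild type cells had Y-linked reads, and ratios within each kind are called Y and non-Y below. The deepest cell gave 50.8% of the reads of the 9 knockout Y cells, so a Y ratio that it turned is also given for the other 8. Markers of primitive erythroid and adult bone marrow cells were low. The 7 primitive erythroid genes summed to 0.0385 CPM in knockout against 0.641 CPM in wild type, and the 8 adult bone marrow genes to 2.23 and 0.512 CPM. Of 12 extraembryonic endoderm genes 10 were under 1 CPM, and all 12 summed to 28.6 CPM in knockout against 15.2 CPM in wild type. Neural ectoderm genes were not low, and their sum was 813 CPM in knockout against 985 CPM in wild type, with medians over cells of 1564 and 1289 CPM. The 4 that were measured (Sox1, Sox3, Six3 and En1) all belong to 95 genes by which the sets differ, which the ranking left out. Sox3 and Six3 are also among the 8 genes whose reads placed a cell in set 1. The choice thus favoured cells with their reads, and the sum is a description. The part of these 4 genes in the results was not tested.

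Among 9962 genes with a mean of at least 5 CPM over the 2 genotypes, 1271 were at least 2-fold lower in knockout (12.8% of the genes) and 681 at least 2-fold higher (6.84%). Without the deepest knockout cell these counts were 801 and 577, and 7.01% of all genes were lower, and 2.56% higher, by at least 2-fold both with and without it. Both in Y and in non-Y cells, 577 genes (5.79%) were at least 2-fold lower and 1.36% at least 2-fold higher. For comparison, wild type cells with and without Y-linked reads differed by 2-fold or more, either way, in 14.9% of the genes, and the fewer knockout cells in 42.9%. The median gene was at -0.13 on the log2 scale. Scaling by TMM moved it to 0.00, a shift of about the same size for every gene, and then 54.7% of the genes past 2-fold were lower in knockout, against 65.1% without that scaling.

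The head of the lower ranking held Mesp1 and, among others, Lefty2, Kdr, Hand1 and Pdgfra. The ranking took, by the difference in mean log2(CPM + 1) over cells, the first 15 genes past 2-fold in the sums with at least 20 CPM and a read in at least 25% of the cells of the higher group. In order they were Mesp1, Fgf3, Lefty2, Kdr, Hand1, Vcan, Phlda2, Fgf15, Gfpt2, Zfp386, Dll3, Rasl11a, Ifitm1, Pdgfra and Letm1. Since the ranking chose them for being lower, their direction is a description. All 15 were lower in Y cells, in non-Y cells and without the deepest knockout cell, and 14, 13 and 13 of them by at least 2-fold, where 31.7% of all genes in Y and 12.6% in non-Y cells were that much lower. In Y cells without the deepest knockout cell all 15 were lower too, 13 by at least 2-fold. For 6 of the 15, 1 knockout cell held more than 50% of the knockout reads.

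Mesp1 (chromosome 7, 79792241 to 79793788, minus strand, GRCm38) was at 10.7 CPM in knockout (9.52 to 12.1) against 388 CPM in wild type (383 to 393), a log2 ratio of -5.05. Over cells it ran from 0 through a median of 11.01 to 41.1 CPM in knockout, and from 18.4 through 365 to 1324 CPM in wild type. The groups barely overlapped: 16 of 22 knockout cells lay below the lowest wild type cell, and none above the wild type median. The ratio was -5.15 in Y and -4.94 in non-Y cells. In Cdh1-high cells Mesp1 was at 6.42 CPM against 440 CPM. The low level goes with the knockout label, but the counts do not show which part of the gene was removed. Its neighbour Mesp2 (chromosome 7, 79810727 to 79813439), a related factor, was at 104.2 CPM in knockout against 60.4 CPM in wild type, with medians over cells of 6.26 and 31.4 CPM. Its log2 ratio of 0.78 was -0.02 without the deepest knockout cell.

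Lefty2, a secreted inhibitor of Nodal, was at 21.4 CPM in knockout against 321.8 CPM in wild type (log2 ratio -3.85). It ran over cells from 0 through 1.02 to 373 CPM in knockout and from 0 through 175.1 to 2978 CPM in wild type, and only 2 of 22 knockout cells were above the wild type median. The ratio was -7.73 in Y cells and -2.95 in non-Y cells, so most knockout reads of Lefty2 came from cells without Y-linked reads. Fgf3, an FGF ligand of early mesoderm, was at 19.3 against 175.3 CPM (-3.12), with a median of 0 against 152.2 CPM over cells. Of its knockout reads 74.1% came from 1 cell, and the ratio was -7.34 in Y and -1.97 in non-Y cells. After thinning, Lefty2 was read in 8 and Fgf3 in 3 of 22 knockout cells, and each in 52 of 62 wild type cells. They were read together in 2 knockout cells (9.09%) and 44 wild type cells (70.97%).

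Kdr, the VEGF receptor of blood and endothelial progenitors, was at 23.2 CPM in knockout (21.3 to 25.1) against 120.9 CPM in wild type (118.2 to 123.7), a log2 ratio of -2.34. Over cells it ran from 0 through a median of 0 to 114.9 CPM in knockout and from 0 through 84.5 to 709 CPM in wild type. Hand1, a factor of extraembryonic mesoderm and heart, was at 5.59 against 95.8 CPM (-3.88), with medians of 0 and 34.9 CPM and a highest knockout cell at 157.9 CPM. Most knockout cells thus had no read of either gene after thinning: Kdr was read in 6 and Hand1 in 2 of 22, against 45 and 39 of 62 wild type cells. They were read together in 2 knockout and 32 wild type cells. Vcan, the matrix proteoglycan versican, was at 0.193 CPM in knockout (0.0625 to 0.450, 5 reads) against 35.7 CPM in wild type. Its ratio of -4.95 was -4.75 in Y and -5.17 in non-Y cells, whereas in Cdh1-high cells it was at 7.39 against 10.2 CPM (-0.42).

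Phlda2, an imprinted growth restrictor, was at 151.3 against 634 CPM (-2.06), and 8 knockout cells lay below the lowest wild type cell at 19.9 CPM. Without the deepest knockout cell, which held 64.03% of the knockout reads, its ratio was -3.07. Ifitm1, an interferon-inducible membrane protein of early mesoderm, was at 34.6 against 185.5 CPM (-2.39), with medians over cells of 27.5 and 164.8 CPM. Pdgfra, the PDGF receptor of nascent and paraxial mesoderm, was at 23.5 against 80.2 CPM (-1.73), and 3 of 22 knockout cells exceeded the wild type median. Dll3, a Notch ligand of presomitic mesoderm, was at 44.2 against 192.95 CPM (-2.10). Fgf15 (chromosome 7, 144896531 to 144900953), which lies beside Fgf3 (144838083 to 144844436), was at 48.005 against 115.3 CPM (-1.25), or -2.34 without the deepest knockout cell. Its ratio was less steady elsewhere, at -0.63 in Y cells and -0.11 against wild type cells of library set 2. Zfp386 and Letm1 were less steady too, at -0.25 and -0.76 in non-Y cells and -0.77 and -0.78 without the deepest knockout cell.

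The start regions of the ranked genes were read for the motif that basic helix-loop-helix factors such as Mesp1 bind, the E-box CANNTG, on either strand (the motif reads the same on both). RefSeq promoters (GRCm38.p6, 250 bases before to 50 after the start) were found for 12 of the 15 lower and 11 of the 15 higher genes. An E-box lay in 9 of the 12 (75%), in 8 of the 11 (72.7%) and in 72.1% of 27025 promoters of the same length, so the shares lay close to each other. The 3 highest-ranked lower genes after Mesp1 that had an entry are shown, with E-boxes in capitals; the letters describe this window only.
Fgf3, chr7:144838362-144838661, plus strand: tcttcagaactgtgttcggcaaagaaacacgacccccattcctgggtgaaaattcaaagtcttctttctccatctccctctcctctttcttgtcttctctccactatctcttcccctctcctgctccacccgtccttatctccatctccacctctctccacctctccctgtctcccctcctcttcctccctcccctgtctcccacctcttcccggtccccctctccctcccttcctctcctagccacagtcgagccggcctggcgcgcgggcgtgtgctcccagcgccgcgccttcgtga
Kdr, chr5:75978406-75978705, minus strand: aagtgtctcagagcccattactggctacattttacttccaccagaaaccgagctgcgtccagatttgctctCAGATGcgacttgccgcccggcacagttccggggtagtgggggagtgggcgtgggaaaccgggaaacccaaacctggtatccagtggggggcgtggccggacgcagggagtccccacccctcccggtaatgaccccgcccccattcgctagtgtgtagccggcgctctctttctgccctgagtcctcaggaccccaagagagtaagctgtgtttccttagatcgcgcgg
Vcan, chr13:89742463-89742762, minus strand: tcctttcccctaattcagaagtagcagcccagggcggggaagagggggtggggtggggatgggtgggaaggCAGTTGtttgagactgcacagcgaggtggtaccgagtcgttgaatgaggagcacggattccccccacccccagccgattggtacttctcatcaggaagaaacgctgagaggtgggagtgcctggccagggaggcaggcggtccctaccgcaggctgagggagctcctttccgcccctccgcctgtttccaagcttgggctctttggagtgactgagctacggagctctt
The Kdr and Vcan windows hold 1 E-box each and the Fgf3 window none.

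The 15 genes at the head of the higher ranking were Fgf5, Rab8b, Apln, Fst, Tnfrsf12a, Gt(ROSA)26Sor, Lrig3, Adamts9, Sec22a, Kdm8, Sp8, Chmp4c, Sft2d3, Ninj2 and Lin54. They include the ligand genes Fgf5 and Apln and the inhibitor gene Fst. Here too the direction was chosen. All 15 were higher in non-Y cells (14 of them by at least 2-fold, against 10.4% of all genes) and 14 in Y cells (9 by at least 2-fold, against 10.2% of all genes). Without the deepest knockout cell 12 were higher in Y cells, 9 by at least 2-fold, and Adamts9 (-0.35), Sec22a (-0.02) and Lin54 (-1.43) were not. The range of log2 ratios in the sums was 1.07 to 2.77.

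Fst, which encodes follistatin, a secreted inhibitor of activin and some BMPs, was at 771 CPM in knockout (761 to 782) against 262.9 CPM in wild type (258.9 to 266.9), a log2 ratio of 1.55. It ran over cells from 410 through 804 to 1464 CPM in knockout and from 0.865 through 215.7 to 1047 CPM in wild type. All 22 knockout cells were above the wild type median, 7 of them above the highest wild type cell. The ratio was 1.22 in Y and 2.001 in non-Y cells. In Cdh1-high cells Fst was at 762 CPM in knockout against 557 CPM in wild type (0.45), so the lowest of the 4 groups was the Cdh1-low wild type.

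Fgf5, an epiblast FGF ligand, was at 97.3 against 26.01 CPM (1.86), with medians over cells of 60.9 and 1.66 CPM, and 21 of 22 knockout cells were above the wild type median. It was at -0.06 in Y and 2.94 in non-Y cells, and at 0.93 in Y cells without the deepest knockout cell. Apln, which encodes the apelin ligand, was at 80.8 against 22.1 CPM (1.83), or 1.93 in Y and 1.65 in non-Y cells. Both genes were near level between the genotypes in Cdh1-high cells, at -0.05 and -0.08. Tnfrsf12a, a receptor of the TNF family, was at 20.7 against 2.18 CPM (2.77) and had the highest ratio of the 15 in Cdh1-high cells too, at 3.18. Sp8, a zinc finger factor, was at 68.1 against 31.9 CPM (1.07), 0.18 in Y and 2.24 in non-Y cells. Rab8b, a vesicle transport GTPase, was at 79.5 against 28.9 CPM (1.43). Adamts9, a matrix protease, rested on 1 cell: the deepest knockout cell held 79.97% of its knockout reads, and without it the ratio fell from 2.32 to 0.50. Gt(ROSA)26Sor and Lin54 also lost the 2-fold difference without that cell, at 0.82 and 0.73.

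**Figure D2:**
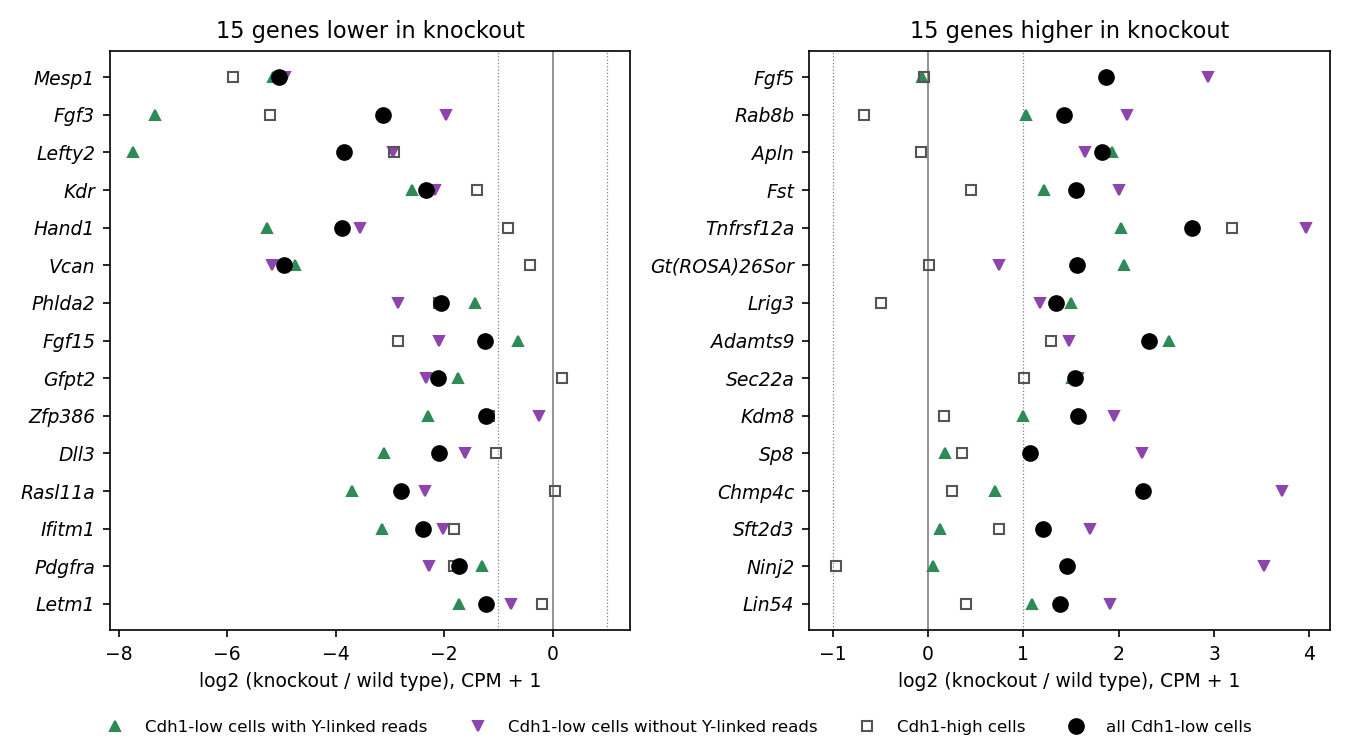
Log2 ratio of knockout to wild type CPM (horizontal axes) for the 15 lower (left) and 15 higher (right) ranked genes, in all Cdh1-low cells (filled circles), those with (triangles up) and without (triangles down) Y-linked reads, and Cdh1-high cells (open squares); dotted lines mark 2-fold. The circles and triangles of the lower genes all lie left of 0, Fgf5 spreads from -0.06 in Y to 2.94 in non-Y cells, and the open squares of Fgf5, Apln and Gt(ROSA)26Sor lie near 0.

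Gene lists were read by their counts and medians over members of at least 1 CPM, beside the same over all 13033 such genes. Of all these genes 59.4% were lower, 16.5% at least 2-fold lower and 7.93% at least 2-fold higher, with a median of -0.16. That median was -0.47 in Y and -0.0075 in non-Y cells, so list medians of the 2 kinds stand against different backgrounds. The nascent mesoderm list was mostly lower: 10 of 12 members, 8 of them by at least 2-fold, with a median of -1.63 (-1.51 in Y, -1.25 in non-Y cells). Snai1, the repressor of Cdh1, was at 90.2 against 260.8 CPM (-1.52), with medians over cells of 81.5 and 190.9 CPM, and at -1.59 and -1.46 in Y and non-Y cells. Tbx6, a T-box factor of paraxial mesoderm, was at 3.43 against 22.3 CPM (-2.40), but at -0.45 in non-Y cells. Rspo3, a WNT amplifier, was at 9.90 against 27.5 CPM (-1.39). With every cell weighted equally Rspo3 was at 0.34, and its highest knockout cell was at 551 CPM. Lhx1, a homeobox factor of early mesoderm (-0.34), Fgf10 (-0.46) and the coactivator Cited2 (0.19) were within 2-fold.

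The primitive streak list went the other way, with 9 of 11 measured members higher, 3 of them by at least 2-fold, and a median of 0.55 (0.42 in Y, 1.13 in non-Y cells). Fgf8, the streak FGF ligand, was at 265.03 CPM in knockout (258.8 to 271.4) against 85.5 CPM in wild type (83.2 to 87.8), a ratio of 1.62 that was 1.25 without the deepest knockout cell. Over cells it ran from 42.1 through 170 to 456 CPM and from 0 through 80.7 to 429 CPM, and 19 of 22 knockout cells were above the wild type median. Mixl1, a homeobox gene of the streak, was at 2151 against 904 CPM (1.25, or 0.94 without the deepest cell), with 21 of 22 cells above the wild type median. Nodal itself was at 59.2 against 20.9 CPM (1.46), with medians of 6.07 and 0 CPM. After thinning, Fgf8 was read in 22 of 22 knockout and 55 of 62 wild type cells, and Nodal in 11 and 16. Both were read in 11 knockout and 15 wild type cells, counts that follow those of Nodal. The T-box factor Eomes, which acts upstream of Mesp1, was at 423 against 288.9 CPM (0.55). Brachyury, written T, was at 257.98 against 177.9 CPM (0.53), but at -0.31 in Y (0.08 without the deepest cell) and 1.604 in non-Y cells. Gsc (0.78), Evx1 (0.35), Sp5 (0.33) and Wnt3a (0.60) were also higher, and Wnt3 (-0.50) and Fgf4 (-0.84) lower.

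Read cell by cell, the 2 lists overlapped between the genotypes, with part of the knockout cells outside the wild type range of the mesoderm list. The mean log2(CPM + 1) of the 11 nascent mesoderm genes other than Mesp1 ran from 2.01 through 3.59 to 6.31 in knockout and from 3.65 through 5.47 to 6.89 in wild type cells. Of the 22 knockout cells 11 (a share with an interval of 28.2 to 71.8%) lay below the lowest of the 62 wild type cells, and 2 above the wild type median. The streak list ran from 4.78 through 5.94 to 7.18 in knockout and from 3.13 through 5.05 to 7.07 in wild type, and 18 of 22 knockout cells (81.8%, 59.7 to 94.8%) were above the wild type median. Both held in 10 of the 22 cells. In Y knockout cells the mesoderm level ran from 2.01 through 2.80 to 4.78, in the 13 non-Y knockout cells from 2.70 through 3.92 to 6.31. The wild type medians were 5.44 and 5.62, so the knockout median was lower in both kinds. The 2 knockout cells above the wild type median were both non-Y.

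**Figure D3:**
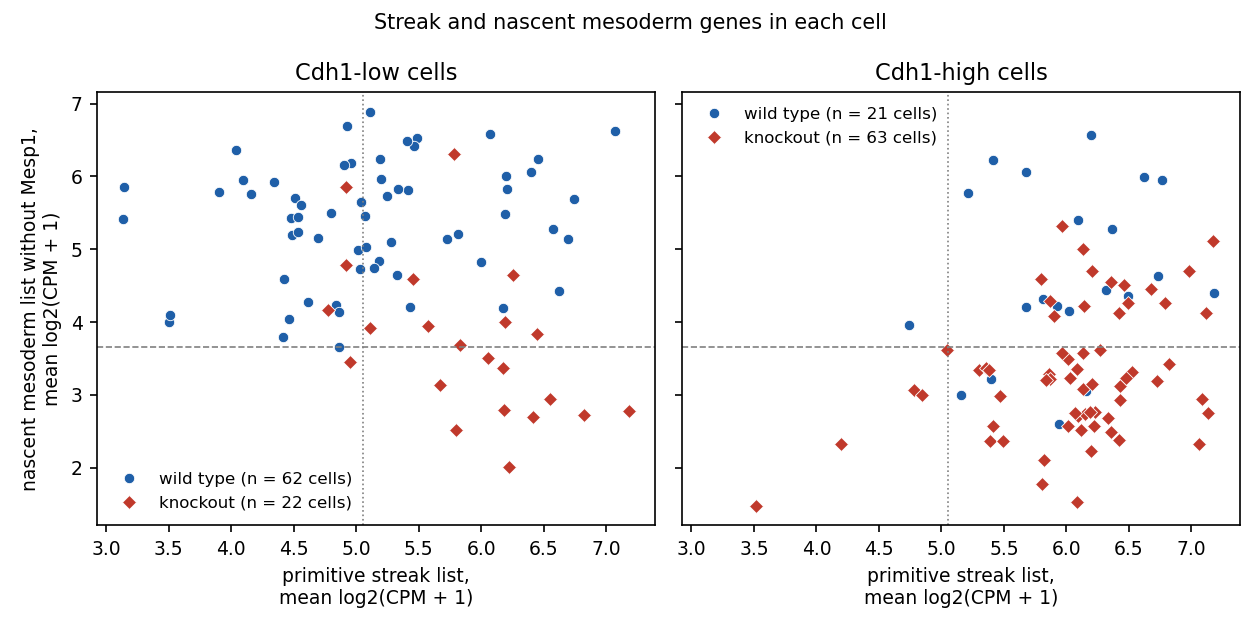
Mean log2(CPM + 1) of the primitive streak list (horizontal axis) and of the nascent mesoderm list without Mesp1 (vertical axis) in each Cdh1-low (left) and Cdh1-high (right) cell; circles are wild type and diamonds knockout cells, the dashed line is the lowest mesoderm level and the dotted line the median streak level of Cdh1-low wild type cells. In the left plot 10 of 22 knockout cells and none of the wild type cells lie to the lower right of both lines; in the right plot 42 of 63 knockout and 4 of 21 wild type cells do.

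The genes of blood and endothelial progenitors were lower in knockout, with 8 of 10 measured members lower, 7 by at least 2-fold, and a median of -1.88 (-1.04 in Y, -2.20 in non-Y cells). With 4 members that had no read in knockout set at the limit of 3 reads, without the added 1 CPM, the median was -3.32. It mixes ratios with and without the added 1 CPM, so it cannot be set against -1.88. Etv2, the ETS factor that starts this lineage, was at 15.5 CPM in knockout (14.01 to 17.1) against 324.7 CPM in wild type (320 to 329.2), a ratio of -4.30. Its spread over wild type cells was wide, from 0 through 21.2 to 2391 CPM, against 0 through 5.74 to 82.3 CPM in knockout. At 100 CPM or more there were 16 of 62 wild type cells (25.8%, 15.5 to 38.5%), 6 of them with Y-linked reads, and 0 of 22 knockout cells, a count that allows up to 13.6% by the limit of 3 counts, with an exact upper bound of 15.4%. Etv2 was read in 11 thinned knockout and 45 thinned wild type cells and Kdr in 6 and 45, and both together in 3 and 35. The blood factors Tal1 and Gata2 had no read in the 22 knockout cells and were at 5.86 and 6.36 CPM in wild type. By the limit of 3 reads over all knockout cells they were at least 50.7-fold and 55.01-fold lower. That limit covers the counting of reads and not the spread between cells. In wild type 49.2% of the Tal1 reads came from 1 cell. Lmo2 was at 0.347 against 2.77 CPM, while Egfl7 (0.17) and Rasip1 (0.10) were level.

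Extraembryonic mesoderm genes were lower in 9 of 9 measured members, 4 by at least 2-fold, with a median of -0.99. The T-box genes Tbx20 and Tbx3 were at 0.462 against 10.8 CPM (-3.01) and 13.48 against 52.1 CPM (-1.88), and Msx1 (-0.11) and Foxf1 (-0.26) were within 2-fold. Foxf1 was at 1191 and 1426 CPM here but at 17.6 CPM in wild type cells of library set 2, and at -1.46 in Y (-0.49 without the deepest knockout cell) and 0.83 in non-Y cells, so its reads moved with the library set. The cardiac list had 11 of 12 measured members lower, 8 by at least 2-fold, and a median of -1.61 (-1.07 with every cell weighted equally). Over cells the level of this list, the mean log2(CPM + 1) of its genes, had medians of 2.29 in knockout and 2.46 in wild type, and 6 of 22 knockout cells were above the wild type median. Gata4, a zinc finger factor of heart mesoderm, was at 54.7 against 163.5 CPM (-1.56), with medians over cells of 84.9 and 173.5 CPM, and its relative Gata6 was at 107.6 against 80.6 CPM (0.41). Myl7, which encodes a myosin light chain of the atria, had 2.66 against 48.03 CPM (-3.74). Isl1, a factor of later heart progenitors, had no read in knockout and 7.13 CPM in wild type, at least 61.7-fold lower by the limit on counted reads. Hand2 was at 22.5 against 29.9 CPM (-0.40), at -1.57 in Y (-0.61 without the deepest knockout cell) and 0.57 in non-Y cells, and at 1.05 CPM in wild type cells of library set 2, so its reads here moved with the library set. Paraxial and presomitic genes were lower in 6 of 7 measured members, all 6 by at least 2-fold (median -2.10). Dll1, a Notch ligand, was at 0.655 against 11.8 CPM (-2.95), and the forkhead gene Foxc2 had 1 read in knockout against 5.29 CPM in wild type.

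**Figure D4:**
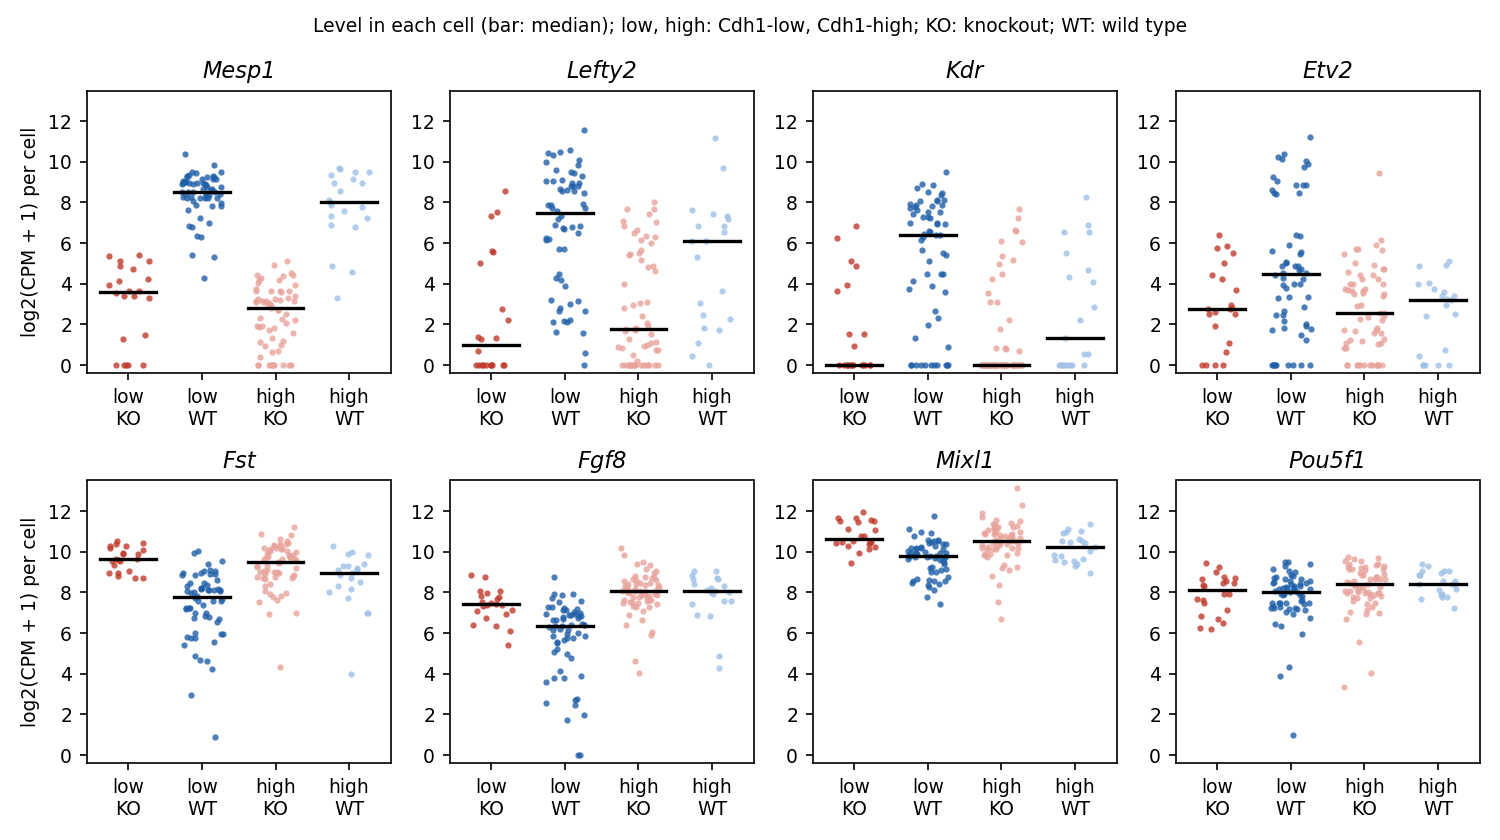
Log2(CPM + 1) per cell (vertical axes) of 8 genes in Cdh1-low and Cdh1-high knockout and wild type cells; each point is 1 cell and the bar is the median. Lefty2, Kdr and Etv2 have their highest medians in Cdh1-low wild type cells, with 16 such cells of Etv2 at 100 CPM or more, while Fst, Fgf8 and Mixl1 have their lowest medians there; Mesp1 is low in both knockout groups.

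Genes of the mesenchymal state were lower in 11 of 13 measured members, 6 by at least 2-fold, with a median of -0.80 (-1.31 in Y, or -0.44 without the deepest cell, and -0.41 in non-Y cells). Cdh11, a mesenchymal cadherin, was at 75.7 against 207.8 CPM (-1.44), Zeb2 at 5.01 against 18.1 CPM (-1.67) and fibronectin (Fn1) at 528 against 871 CPM (-0.72). Vimentin (Vim), in contrast, was level in the sums, at 55.02 and 55.2 CPM, with medians over cells of 57.6 and 28.1 CPM, and Itga5, the fibronectin receptor subunit, was higher at 145.6 against 45.7 CPM (1.65, or 0.83 without the deepest cell). The matrix list had 10 of 12 members lower, 5 by at least 2-fold (median -0.96). Lama1, a laminin chain, had no read in knockout and 6.74 CPM in wild type, at least 58.3-fold lower by the limit on counted reads. Of its wild type reads 72.4% came from 1 cell, a spread that this limit does not cover. Of the migration and guidance genes 12 of 19 were lower, 10 by at least 2-fold, and 7 higher, 4 by at least 2-fold. The median of -1.02 became 0.04 in non-Y cells, and was -1.30 in Y cells or -0.33 in Y cells without the deepest one. Efnb1, an ephrin ligand, was at 1.27 against 16.1 CPM (-2.91), and Rasgrp3, a Ras exchange factor, at 7.86 against 27.02 CPM (-1.66). Aplnr, the receptor of apelin, was at 51.7 against 108.9 CPM (-1.06), opposite in direction to its ligand gene Apln, but at 0.24 in non-Y cells and -0.61 without the deepest knockout cell.

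Of the epithelial genes outside the rule 7 of 15 were lower, 2 by at least 2-fold, and 8 higher, 3 by at least 2-fold, with a median of 0.13. The median was -0.42 in Y cells (0.33 without the deepest knockout cell) and 0.29 in non-Y cells. Cldn7 was at 8.59 against 1.47 CPM (1.955) and Grhl2, an epithelial transcription factor, at 10.5 against 3.86 CPM (1.24). Dsp, which encodes the desmosome protein desmoplakin, was at 101.6 against 37.3 CPM (1.42), but 79.2% of its knockout reads came from 1 cell. Without the deepest knockout cell it was at -0.35, and in non-Y cells at -0.16. Lad1 was lower, at 0.424 against 10.6 CPM (-3.03, or -2.62 in Y and -3.47 in non-Y cells). Prss8, a membrane-bound serine protease, was at 4.97 against 13.6 CPM (-1.29, or -0.89 without the deepest knockout cell), with 90.7% of its knockout reads in 1 cell. The epiblast list had 8 of 15 lower and 7 higher and a median of -0.01 (-0.10 in Y, or 0.71 without the deepest cell, and 0.22 in non-Y cells). Pou5f1 was at 253.97 against 241.9 CPM (0.07), 0.02 in Y and 0.13 in non-Y cells. Otx2, a homeobox factor of the anterior epiblast, was at 261.3 against 144.7 CPM (0.85). L1td1 (2.26) had 82.9% of its knockout reads in the deepest cell and was at 0.25 without it.

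In the Nodal pathway the ligand and its inhibitor Lefty2 parted. Nodal (1.46) and Fst (1.55) were higher, Lefty2 (-3.85) was lower, and the co-receptor Tdgf1 was at 1416 against 1599 CPM (-0.17). Of the 16 measured members 4 were at least 2-fold lower and 3 at least 2-fold higher. Cer1, another secreted inhibitor, was at 1.54 against 21.5 CPM (-3.15), but 99.3% of its wild type reads came from 1 cell. Of 19 measured FGF genes 14 were lower, 6 by at least 2-fold, and 5 higher, 2 by at least 2-fold. Their median was -0.47, or -0.21 without the deepest knockout cell. The ligands split too, with Fgf5 and Fgf8 higher and Fgf3 and Fgf15 lower, and Fgf4 and Fgf10 lower within 2-fold. The receptor Fgfr1 was at 42.6 against 103.5 CPM (-1.26, or -0.81 without the deepest cell), and the ERK feedback gene Dusp6 was within 2-fold (-0.27). Of the WNT genes 4 of 17 were at least 2-fold lower and 1 higher. Their median of -0.34 was 0.035 without the deepest knockout cell and 0.20 with every cell weighted equally, and their level over cells had medians of 3.17 in knockout and 3.01 in wild type. Wnt5a, a ligand of migrating mesoderm, was at 2.85 against 27.1 CPM (-2.87), and the WNT target Axin2 at 38.9 against 11.2 CPM (1.71, or 0.84 without the deepest cell). Notch genes had a median of -1.20, but -2.08 in Y (-1.26 without the deepest cell) and -0.03 in non-Y cells, and Notch1 was at 2.12 against 22.7 CPM (-2.92), -3.38 in Y and -2.61 in non-Y cells. The BMP list had 11 of 13 members lower, 3 by at least 2-fold (median -0.59), with the receptor Bmpr1a at 34.8 against 89.5 CPM (-1.34, or -0.90 without the deepest cell).

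Of 15 genes that earlier work reports as switched on by Mesp1, 14 were measured and 13 were lower, 10 by at least 2-fold, with a median of -1.48 (-1.61 in Y, -1.32 in non-Y cells). The exception was Dkk1, a WNT inhibitor, at 66.1 against 39.3 CPM (0.74, or -0.99 in Y, -0.0023 in Y without the deepest cell and 1.62 in non-Y cells). Of 6 genes reported as held down by Mesp1, 4 of the 5 measured were higher (T, Fgf8, Nodal and Gsc) and Foxa2 was lower, at 1.39 against 2.32 CPM (-0.48). These lists were drawn up with earlier results of these cells known and share members with the lists above, so they are not independent of them. Cell cycle genes did not part the genotypes by 2-fold: none of 13 S phase and none of 14 G2/M genes was past it, with medians of 0.12 and -0.14. The p53 target list had 7 of 12 members at least 2-fold lower (median -1.76, or -0.64 with every cell weighted equally). Phlda3 was at 0.886 against 31.9 CPM (-4.12) and Cdkn1a, the p21 inhibitor, at 4.08 against 25.3 CPM (-2.37), with 42.5% and 40.6% of the wild type reads in 1 cell. The median level of this list over cells was 2.43 in knockout and 2.34 in wild type.

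**Figure D5:**
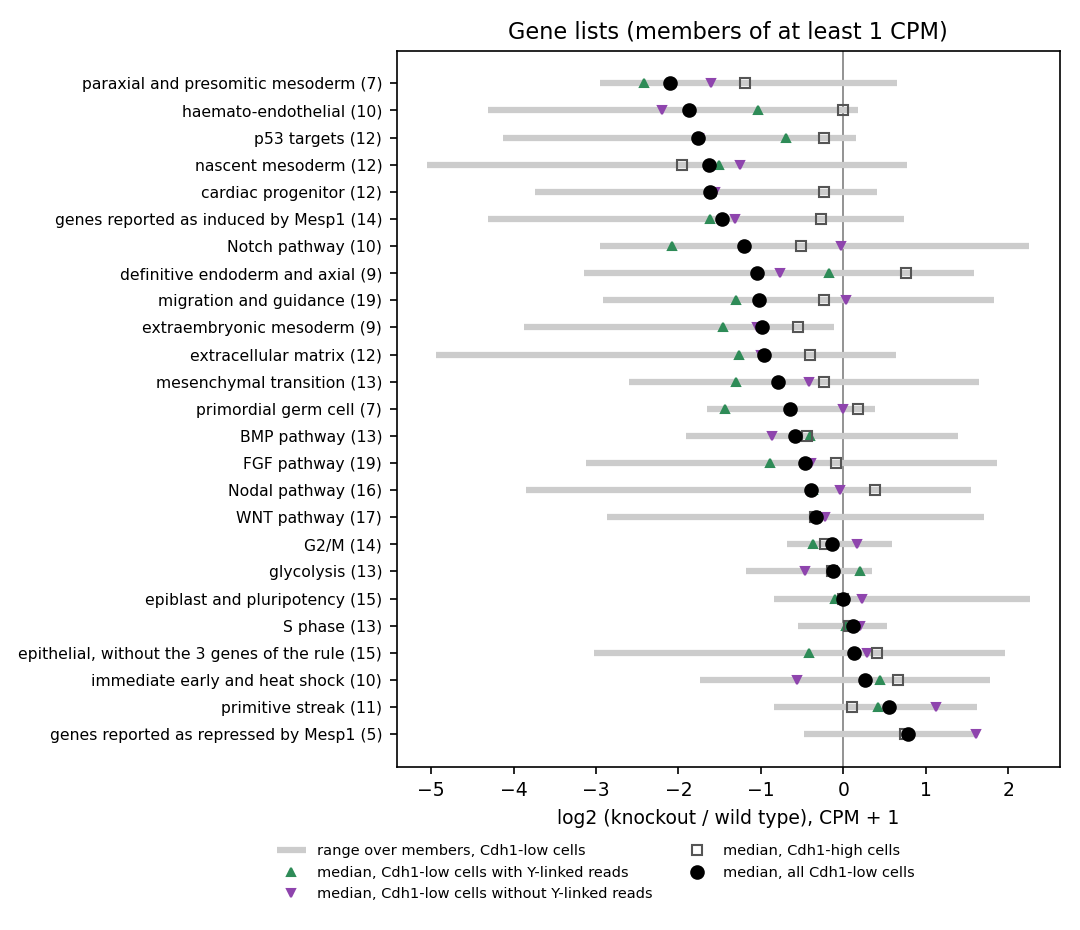
Median log2 ratio of knockout to wild type CPM (horizontal axis) for each gene list with at least 5 measured members (their number in brackets), in all Cdh1-low cells (filled circles), those with (triangles up) and without (triangles down) Y-linked reads, and Cdh1-high cells (open squares); grey bars span the members in Cdh1-low cells. The nascent mesoderm median lies left of -1 in both (-1.63 and -1.95), the haemato-endothelial median lies at -1.88 in Cdh1-low and 0.00 in Cdh1-high cells, and the Notch median moves from -2.08 to -0.03 between Y and non-Y cells.

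The Cdh1-high cells (63 knockout, 21 wild type) share no cell with the Cdh1-low cells, and their ratios are set beside them without a test of the difference, which 1 sample a group does not allow. There 6.77% of 9999 genes were at least 2-fold lower in knockout and 5.48% at least 2-fold higher. Among 9390 genes measured in both, those at least 2-fold lower in both made up 13.6% of the lower genes in Cdh1-low and 31.03% in Cdh1-high cells. For genes at least 2-fold higher, 55 were shared, 10.3% and 12.0%. The 13.6% stands against 6.77% of all genes that much lower in Cdh1-high cells, and the 31.03% against 12.8% in Cdh1-low cells. For higher genes, 10.3% stands against 5.48% and 12.0% against 6.84%. These background shares are over 9999 and 9962 genes, not over the 9390. Of the 15 ranked lower genes 13 were also lower in Cdh1-high cells, 10 by at least 2-fold. Of the 15 higher genes 10 were also higher there, 3 by at least 2-fold. The median log2 ratio of all 9999 genes there was 0.02, so genes were nearly balanced between higher and lower. The 10 of 15 was not tested against that balance. The nascent mesoderm median was -1.95 there, with Mesp1, Lefty2 and Fgf3 at -5.90, -2.93 and -5.21. In contrast the haemato-endothelial median was 0.00, the cardiac median -0.24 and the streak median 0.11, against -1.88, -1.61 and 0.55 in Cdh1-low cells. Etv2 was at 18.6 CPM in Cdh1-high knockout and 8.09 CPM in Cdh1-high wild type cells, and Fgf8 at 320 and 297.5 CPM. So for Etv2 and Fgf8 the Cdh1-low wild type cells stood furthest from the other 3 groups, at 324.7 and 85.5 CPM.

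Because the kept knockout cells sat nearer the threshold, the ratios were also read in the lower part of the range, below the lower tertile of the mean of the 3 genes (11 knockout, 45 wild type cells). There the medians of the 3 genes were 2.64 and 2.49. Mesp1 (-5.27), Lefty2 (-3.55), Hand1 (-4.29), Kdr (-1.90) and Etv2 (-4.04) were lower and Fst (1.504), Fgf8 (1.97), Mixl1 (1.33) and Fgf5 (2.53) higher, against 1.55, 1.62, 1.25 and 1.86 for the last 4 in all kept cells. Nodal (0.79) and Apln (0.06) were no longer past 2-fold there, and neither was Fgf15 (-0.53). The deepest knockout cell, at 2.28 for the mean of the 3 genes, was among these 11. Its log2(CPM + 1) was 0 for Nodal, 0.19 for Apln and 6.89 for Fgf15, and its part in these ratios was not tested.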

How the data were processed

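The deposited file holds raw read counts per gene and cell, which the authors made with GSNAP, HTSeq 0.5.3p3 and build mm10, per the submitters' processing notes. Strand setting and cell filters were not stated there. It lists 40912 genes, of which 40254 identifiers had a symbol. The labels' protocols describe plate-based whole-transcript libraries without molecular identifiers. The labels' protocol text also describes adult bone marrow sorting, so whether it holds for these cells was not settled. The members and gene lists were chosen with earlier results of these data known. Counts of each genotype's cells were added up and given as CPM with 1 CPM added before log2. Genes needed a mean of 5 CPM over the 2 genotypes (1 CPM for list members), and past 2-fold is a size, not a test. Shares of cells were read after thinning each cell to 100000 reads, which left out 0 kept cells. Y-linked reads means over 3 CPM summed over Eif2s3y, Uty and Kdm5d. Doublets were not called. Named genes are the 15 ranked ones a direction, leaving out mitochondrial, Y-linked, predicted and pseudogenes, and up to 6 members of each list with the largest and 2 with the smallest ratio. Other members of the lists that are named (Aplnr, Dkk1, Dusp6, Fgf10, Fgf4, Fn1, Foxa2, Foxc2, Gata2, Isl1, Lama1, Lmo2, Mesp2, Tal1, Wnt3 and Wnt3a) were chosen after their values were seen. The scripts were tested on simulated data. Python 3.11.15, R 4.3.3, edgeR 4.0.16 (TMM) and DESeq2 1.42.0 (median of ratios) were used, the last 2 for scaling factors only. Alternatives are given in the closing section. The values of 1 gene of the lists are not reported here.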

Additional observations from a re-analysis of the deposited data

Results flagged for a closer look

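For 3 genes the log2 ratio between the genotypes was past 2-fold in opposite directions in Cdh1-low and Cdh1-high cells, and none of these differences was tested. Etv2 was at -4.30 in Cdh1-low and 1.11 in Cdh1-high cells. Cdkn1a was at -2.37 and 1.43, and Cer1 at -3.15 and 1.34, with 99.3% of the Cdh1-low wild type reads of Cer1 in 1 cell. The coactivator Cited2 was at -1.06 in Cdh1-low Y cells (with Y-linked reads) and at 1.21 in non-Y cells, which was not tested either. Without the deepest knockout cell its Y ratio was -0.09.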

How the results depend on the processing

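Against 1271 genes lower and 681 higher, the counts were 2366 and 1040 below the lower tertile of the epithelial mean, 2968 and 1062 in cells with Y-linked reads, 490 and 361 with 10 CPM added, and 2484 and 1103 with no minimum. The lower count was 756 with cells weighted equally, 815 after thinning, 837 without the deepest 10% of cells, and, in comparisons added after seeing the data, 801 without the deepest knockout cell and 2083 against wild type cells of library set 2. The higher count was 1099 in cells without Y-linked reads. Of the list medians, WNT was -1.18 below that tertile and -1.08 against set 2, but 0.035 without the deepest knockout cell and 0.20 with cells weighted equally. Glycolysis was -0.37 below that tertile, 0.21 with and -0.46 without Y-linked reads. S phase was 0.23 at each genotype's own median, 0.25 with TMM, 0.25 with median-of-ratios factors and 0.20 without Y-linked reads. FGF was 0.081 after thinning, primordial germ cell genes 0.55 when chosen by Cdh1 alone, paraxial genes -3.10 and G2/M -0.37 with Y-linked reads, and migration genes turned to 0.036 without them. In cells with Y-linked reads without the deepest knockout cell, also added after seeing the data, definitive endoderm genes, over the members that passed the minimum there, were at 0.19 and glycolysis at 0.34. Of the named genes past 2-fold, those that changed sign were Fgf5 (-0.061 with Y-linked reads), Aplnr (0.24 without them), Rspo3 (0.34 with cells weighted equally), Zfp386 and L1td1 (0.017 and -0.93 without the deepest 10% of cells), and Sft2d3 and Cer1 (-0.10 and 1.26 against set 2). Dsp was at -0.44 with cells weighted equally, -0.40 after thinning, -0.16 without Y-linked reads, -0.53 without the deepest 10% of cells and -0.35 without the deepest knockout cell. In cells with Y-linked reads without that cell, Adamts9 was at -0.35, Sec22a at -0.020, Lin54 at -1.43, Dsp at -0.23, L1td1 at -1.27, Cer1 at 0.032 and Cdkn1a at 0.31. Named genes within 2-fold also changed sign, among them T, Dkk1, Hand2, Foxf1, Cited2 and Mesp2, whose values stand with the results above. The cause was not tested. No paired analysis was possible because the labels number single cells and name no embryo or pool that the genotypes share. With 1 sample a genotype, depth limits only the counting error.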

Other observations

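Markers of definitive endoderm and axial mesoderm were few in these cells. Of the 9 measured, 5 were at least 2-fold lower and 1 at least 2-fold higher in Cdh1-low knockout cells, with a median of -1.04 against 0.76 in Cdh1-high cells, a difference that was not tested. The level over cells went the other way, with medians of 1.11 in knockout and 0.909 in wild type, and 14 of 22 knockout cells were above the wild type median. The median ratio was -0.18 among Y cells (with Y-linked reads), or 0.03 without the deepest knockout cell, and -0.77 among the others (non-Y). Primordial germ cell genes had 3 of 7 measured members at least 2-fold lower (median -0.64, or -1.44 in Y and 0.00 in non-Y cells), while their level over cells was 1.53 in knockout and 1.29 in wild type. Glycolysis genes had 1 of 13 members past 2-fold (median -0.13, or 0.21 in Y and -0.46 in non-Y cells), and immediate early genes had 2 of 10 lower and 2 higher by at least 2-fold (median 0.26, or 0.45 in Y and -0.56 in non-Y cells).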
